A study of Mus musculus with 6 samples.

Results

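DNA replication and G1/S genes were examined in the hearts of mice kept at lunar gravity and of ground control mice. The 47 genes, a list of replication factors and regulators of S phase entry, were found by symbol, and all 47 were among the 49585 genes of the deposited table. The ground control group was male mice, aged 8 or 9 weeks, at 1 g; its libraries are called GC1 to GC3. The lunar gravity group was male mice of the same ages held at 0.167 g by a centrifuge on a space station (31 rpm, radius 15 cm); its libraries, titled PG for partial gravity, are called LG1 to LG3. The labels give C57BL/6J as the strain of the ground controls, at 6 animals per mission, and name no strain for the lunar gravity mice, no mission for a library and no transgene or drug. They do not say that each library is 1 animal, and the p-values below reflect only how these libraries vary, which may be technical. The header of the table places GC3 under PG, while its name and title call it a ground control, and the title was followed.

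Before a cell copies its DNA, the origin recognition complex, CDC6 and CDT1 load the MCM helicase at origins. CDC45 and GINS then turn it into a working helicase, and polymerases, the sliding clamp PCNA and its loader RFC follow. Many of these genes are induced by E2F transcription factors as cells pass from G1 into S phase, while others are also made in resting cells for repair. In the adult heart most cardiomyocytes have left the cell cycle, and dividing cells are mainly found among non-muscle cells. In RNA from whole hearts, fewer cycling cells and less RNA per cycling cell cannot be told apart.

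Total counts ranged from 6461213 to 8271553 per library, and mitochondrial genes took 16.3% to 18.3% of them. All 8 cardiomyocyte markers were detected, with a summed level of 66642 to 92390 CPM (counts per 1000000 counts of the library, with library sizes scaled by the TMM method). The proliferation marker Mki67 had 105, 158 and 111 counts in GC1 to GC3 against 33, 19 and 35 in LG1 to LG3, a log2 fold change (lunar gravity over ground control, as everywhere below) of -2.31 with a 95% interval of -2.69 to -1.92. The topoisomerase gene Top2a of dividing cells had a log2 fold change of -2.94 (-3.53 to -2.34).

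Of the 47 replication and G1/S genes, 2 fell in lunar gravity, and for 30 tested genes no difference was called. Of the 47, 32 had enough reads to be tested by edgeR's quasi-likelihood test, fitted and adjusted (Benjamini-Hochberg) over 12258 genes. Uhrf1 and Rrm2 passed at an adjusted p under 0.05, both lower in lunar gravity. These 2 are 6.25% of the tested members, where 2.21% of all tested genes were called lower. No member was called higher, where 1.56% of all tested genes were. At an unadjusted p under 0.05, 7 tested members were lower and 1 higher. The share of all tested genes at that threshold is not given here, so these counts have no background to be read against. The counts of calls are small, and limma voom called 2 members while DESeq2 called 0. The filter on low counts can be passed through 1 group alone. Uhrf1 and Rrm2 were high enough for it in every ground control library but not in every lunar gravity library. With a filter blind to group (a mean of at least 1 CPM over all 6 libraries), both were again called lower, among 34 members (edgeR adjusted p = 0.016 and 0.031). The share of all genes called lower in that fit is not given here.

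The 47 genes together made up a small share of the RNA. Their summed level was 282, 290 and 308 CPM in GC1 to GC3 and 276, 272 and 278 CPM in LG1 to LG3. The lunar gravity libraries all lay below the ground control libraries, with means of 275 ± 2.79 and 293 ± 13.5 CPM (SD, n = 3) and a ratio of 0.939. Scaled by library totals in place of TMM, the same sums were 279, 285 and 301 CPM against 286, 272 and 280 CPM, and the groups overlapped. The log2 ratio of the sums was -0.091 with TMM, -0.047 with library totals and -0.053 with TMM without GC3. The 5 most abundant members, Rfc1, Dnmt1, Gmnn, Pcna and Rrm1, held 47.7% of the members' counts and had a summed ratio of 1.00. The other 42 summed to 148, 162 and 163 CPM on the ground and 141, 138 and 141 CPM in lunar gravity, a ratio of 0.886.

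**Figure D1:**
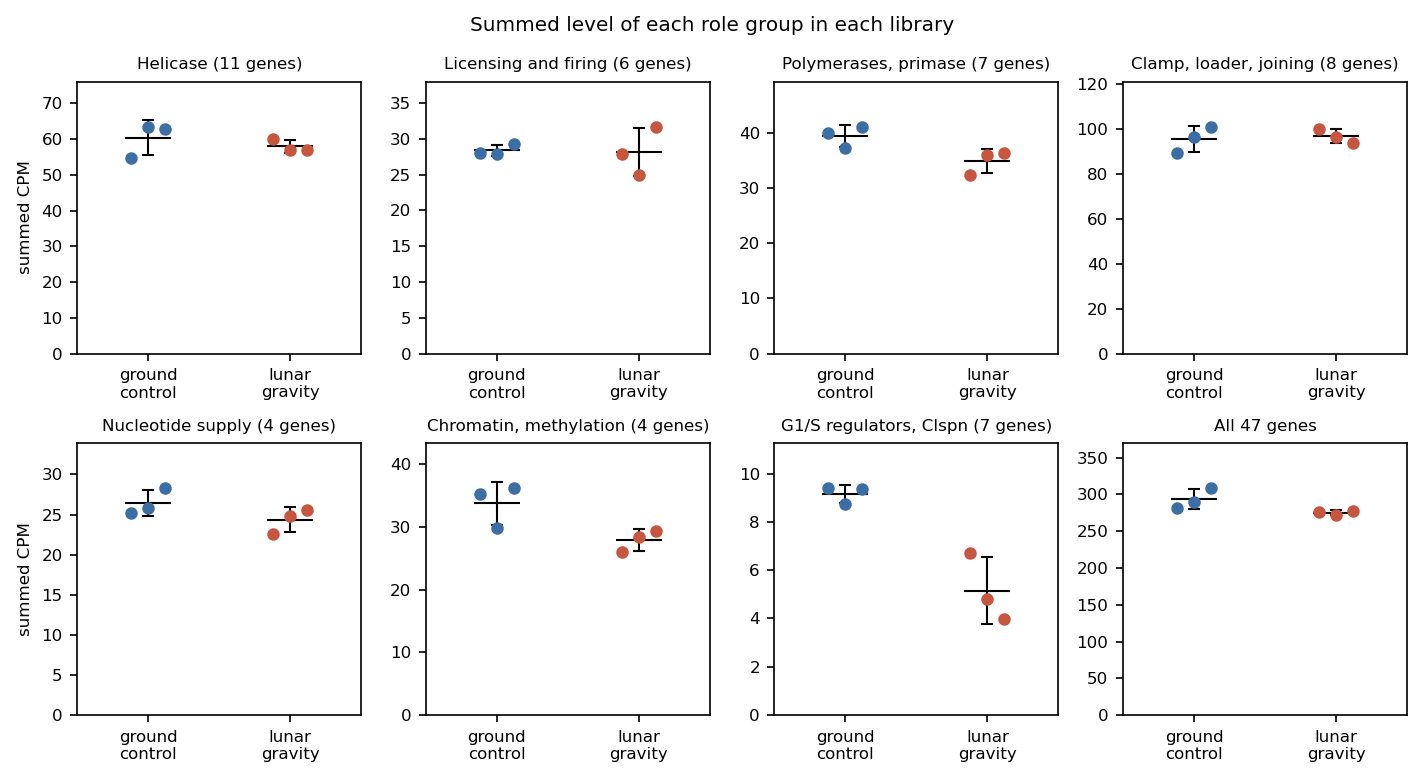
Summed level (CPM, linear axis from 0) of each role group and of all 47 genes; each point is 1 library (3 per group), bars are the mean and SD. The sum of the G1/S regulators with Clspn lay between 8.74 and 9.39 CPM on the ground and between 3.96 and 6.70 CPM in lunar gravity, while the sums of the helicase, licensing and clamp groups overlapped between the groups.

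Without a filter on low counts, 46 members had at least 1 count, and their median log2 fold change was -0.27, beside -0.0035 over all 19222 genes with a count. Of the 46, 32 lay below 0 (69.6%), beside 50.6% of all genes. With a filter blind to group, a mean of at least 1 CPM over all 6 libraries, 34 members remained, with a median of -0.12 beside 0.0017 over 12678 genes. Of the 34, 22 lay below 0, beside 49.7% of all genes in that fit. The values below -1 belonged to genes with a mean under 3 CPM. The groups did not overlap in CPM for 9 members, 8 lower and 1 higher in lunar gravity; these are 17.4% and 2.17% of the 46, where 8.74% and 7.35% of all genes with a count were apart in these directions.

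**Figure D2:**
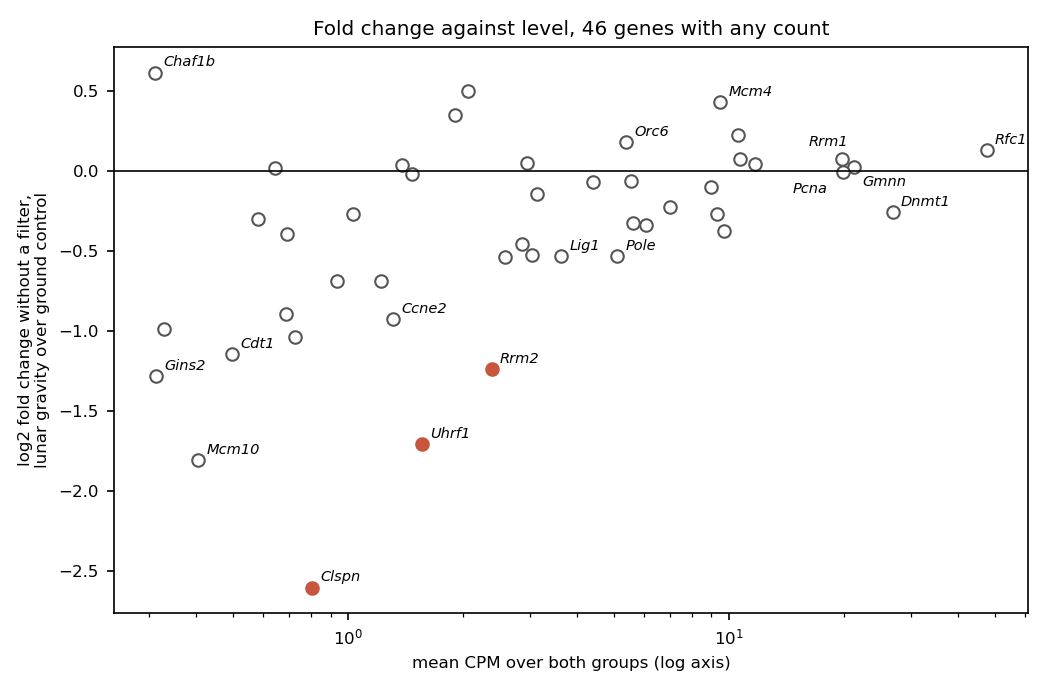
Log2 fold change (lunar gravity over ground control, edgeR without a filter) against the mean level in CPM over both groups (log axis) for the 46 genes with any count. Filled points passed at an adjusted p under 0.05 in that fit (Uhrf1, Rrm2 and Clspn). The abundant genes Pcna, Gmnn and Rrm1 lie near 0, and the widest scatter is at the lowest levels.

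Uhrf1, which binds hemimethylated DNA behind the fork and brings in the maintenance methyltransferase, had the smallest p of the tested members (ENSMUSG00000001228, GRCm38, chromosome 17, 56303320 to 56323486). It had 15, 19 and 15 counts in GC1 to GC3 against 3, 5 and 9 in LG1 to LG3, which is 2.35, 2.68 and 2.20 CPM against 0.372, 0.707 and 1.08 CPM. Every lunar gravity library lay below every ground control library. Uhrf1 fell by 1.71 on the log2 scale (SE 0.41, 95% interval -2.55 to -0.87, edgeR adjusted p = 0.015). Its call was lost without GC2 (adjusted p = 0.099), LG1 (0.090) or LG2 (0.074). Intron reads of Uhrf1 were 8, 6 and 8 in GC1 to GC3 against 1, 0 and 2 in LG1 to LG3. These reads are few, come from the same libraries and were not tested.

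Of 2 RefSeq start sites of Uhrf1, 1 carries letters nearby that E2F factors are known to bind. The window from 250 bases before to 50 bases after a start site was taken from RefSeq (GRCm38.p6) and searched on both strands for TTTCCCGC, TTTGGCGC, TTTCGCGC and TTTGCCGC, which can overlap each other where 2 lie on opposite strands. Windows were found for 38 members, and 18 of these genes (47.4%) held such letters in at least 1 window, beside 2.61% of all 27025 genes in the promoter table. Uhrf1 was the only called member with a match, in 1 of its 2 windows, and Rrm2 had none in its window. The other window of Uhrf1, 56303087 to 56303386, spans the gene start given above and held no match. The window with the match lies downstream of that gene start. Clspn, and Mcm6 as the member with the most matches, are shown for comparison and were chosen after their values were seen. Capitals mark the matches, and each sequence reads 5′ to 3′ on the strand of its gene.
Uhrf1, chr17:56304063-56304362, plus strand: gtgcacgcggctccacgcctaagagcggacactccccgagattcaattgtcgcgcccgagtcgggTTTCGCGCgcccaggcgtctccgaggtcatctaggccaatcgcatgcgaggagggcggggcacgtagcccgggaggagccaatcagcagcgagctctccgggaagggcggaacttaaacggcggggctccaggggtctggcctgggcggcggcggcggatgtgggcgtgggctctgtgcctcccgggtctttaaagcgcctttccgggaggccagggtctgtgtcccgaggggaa
Clspn, chr4:126556730-126557029, plus strand: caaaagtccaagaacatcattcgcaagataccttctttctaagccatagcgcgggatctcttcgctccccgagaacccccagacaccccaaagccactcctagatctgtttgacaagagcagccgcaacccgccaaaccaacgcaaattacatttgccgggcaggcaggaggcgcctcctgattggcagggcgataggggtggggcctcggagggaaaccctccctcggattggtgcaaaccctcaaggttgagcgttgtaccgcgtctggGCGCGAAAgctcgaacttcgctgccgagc
Mcm6, chr1:128359656-128359955, minus strand: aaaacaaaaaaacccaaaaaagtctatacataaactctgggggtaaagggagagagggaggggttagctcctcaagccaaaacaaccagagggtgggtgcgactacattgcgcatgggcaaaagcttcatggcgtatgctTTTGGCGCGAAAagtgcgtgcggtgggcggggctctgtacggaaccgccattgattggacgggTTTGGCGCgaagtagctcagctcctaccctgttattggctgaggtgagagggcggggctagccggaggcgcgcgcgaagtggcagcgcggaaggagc
Positions are relative to the start site of the window shown. The match of Uhrf1 begins 185 bases before that site and that of Clspn 21 bases after it. The 3 of Mcm6 begin 110, 106 and 47 bases before it, the first and second of them overlapping. Mcm6, with 3 matches, had a log2 fold change of -0.11 (95% interval -0.43 to 0.22). Of the 17 genes with a match and a count, 14 lay below 0 with a median log2 fold change of -0.39, and of the 20 with a window but no match, 13 did, with a median of -0.067. The CCAAT box (CCAAT, either strand) was in 63.2% of the 38 members and 41.1% of all genes, and the cell cycle homology letters TTTGAA, which mark many genes of later cell cycle phases, in 18.4% and 20.2%.

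Among the other chromatin genes, Dnmt1, the maintenance DNA methyltransferase, was at 29.4 ± 4.25 CPM on the ground and 24.4 ± 1.52 CPM in lunar gravity, a log2 fold change of -0.27 (95% interval -0.50 to -0.035) that did not pass (edgeR adjusted p = 0.24). Its groups overlapped. Chaf1a and Chaf1b, subunits of the chromatin assembly factor that places histones on new DNA, had log2 fold changes of 0.49 (-0.18 to 1.16) and, without a filter and from 1 to 6 counts per library, 0.61. Within the chromatin genes the values ran in both directions, and 1 of 3 tested members was called. Their sums were 35.2, 29.9 and 36.2 CPM on the ground and 26.1, 28.4 and 29.4 CPM in lunar gravity, apart by a small margin.

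Rrm2, the S phase subunit of ribonucleotide reductase, which makes DNA building blocks, was the other member called (ENSMUSG00000020649, chromosome 12, 24708240 to 24714146). It had 23, 17 and 28 counts in GC1 to GC3 against 13, 9 and 11 in LG1 to LG3, or 3.60, 2.40 and 4.10 CPM against 1.61, 1.27 and 1.32 CPM. The groups did not overlap, and the ground control libraries were the more spread. Rrm2 fell by 1.24 on the log2 scale (SE 0.32, 95% interval -1.91 to -0.58, edgeR adjusted p = 0.028). Its call was lost without GC1 (adjusted p = 0.091), GC3 (0.13), LG2 (0.12) or LG3 (0.085). Rrm2 had 1, 4 and 2 intron reads in GC1 to GC3 against 3, 0 and 0 in LG1 to LG3, which overlapped and are too few to compare.

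The large subunit of the same enzyme, Rrm1, is made throughout the cell cycle, and its log2 fold change was 0.072 (-0.17 to 0.31), at 19.3 ± 1.57 CPM on the ground and 20.3 ± 1.19 CPM in lunar gravity. The nucleotide supply genes, Tk1 and Tyms included, summed to 25.2, 25.8 and 28.3 CPM on the ground and 22.6, 24.9 and 25.6 CPM in lunar gravity, and overlapped. Both subunits of the reductase are needed for the enzyme, and only for Rrm2 did the test call a difference; the difference between their changes was not tested. Tyms, which makes thymidylate, had a log2 fold change of -0.46 (-1.06 to 0.14). Tk1, thymidine kinase, had 1 to 5 counts per library and was not tested; 3.95% of its exon reads were unique, and with all exon reads counted its log2 fold change was -0.36 (edgeR adjusted p = 0.38).

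**Figure D3:**
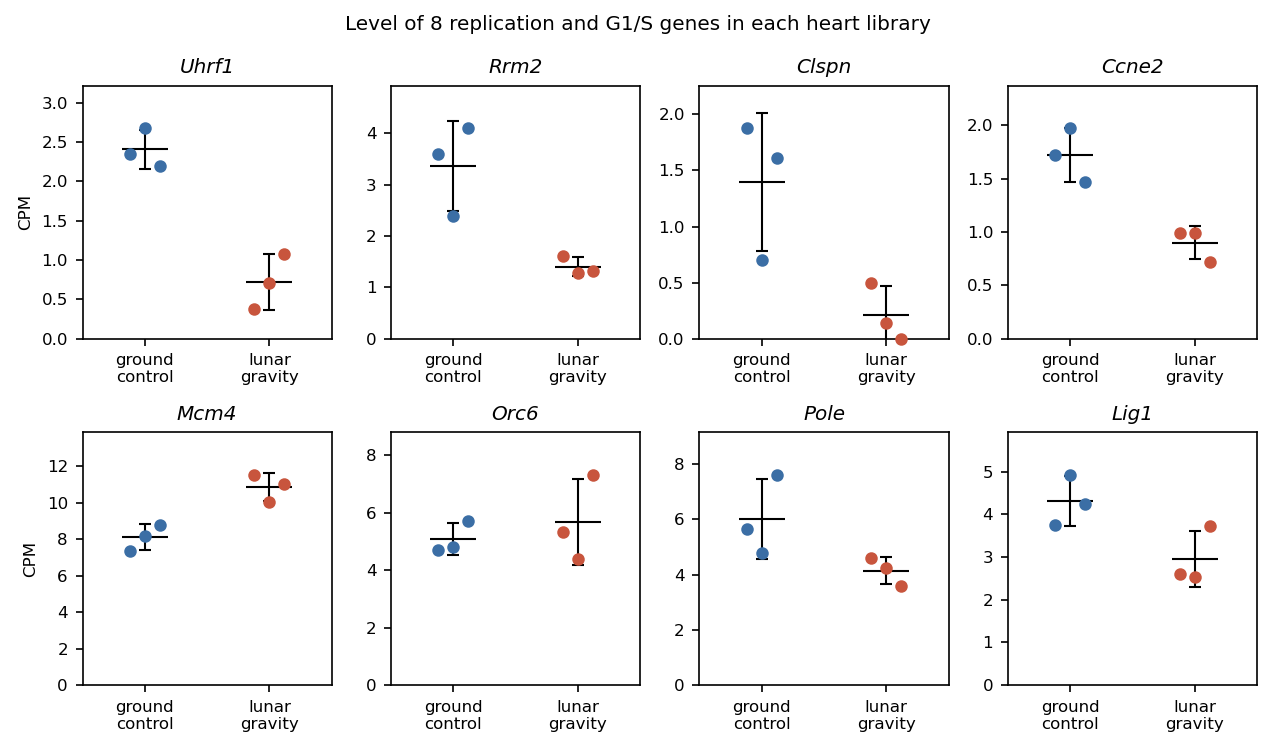
Level (CPM, linear axes from 0) in each of the 6 libraries for the called genes Uhrf1 and Rrm2, for Clspn, and for the tested gene with the smallest p in each other role group; bars are the mean and SD of 3 libraries. In Uhrf1, Rrm2, Clspn, Ccne2, Pole and Lig1 the lunar gravity points all lie below the ground control points, in Mcm4 all above, and in Orc6 they overlap.

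The G1/S regulators and the checkpoint mediator Clspn had the lowest sum of any role group and the lowest ratio between groups, and with no more than 15 counts in any library, 2 of these 7 genes could be tested. Their summed counts were 60, 62 and 64 in GC1 to GC3 against 54, 34 and 33 in LG1 to LG3. In CPM the sums were 9.39, 8.74 and 9.37 against 6.70, 4.81 and 3.96, so the groups were apart, with a ratio of 0.562. All 7 had a log2 fold change below 0 without a filter, from -2.60 in Clspn to -0.020 in E2f8. The ratio is a description of genes read together and was given no test.

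Ccne2, a cyclin that drives S phase entry with CDK2, had 11, 14 and 10 counts in GC1 to GC3 against 8, 7 and 6 in LG1 to LG3, or 1.72, 1.97 and 1.46 CPM against 0.993, 0.990 and 0.720 CPM. The groups were apart, but its log2 fold change of -0.93 (SE 0.40, 95% interval -1.76 to -0.10) did not pass (edgeR adjusted p = 0.25). Unique reads made up 37.6% of its exon reads. Its sister cyclin Ccne1 was not tested at 4, 4 and 12 counts against 6, 3 and 2. The activator E2f1 had 9, 5 and 4 counts against 3, 4 and 4, and the activator E2f2 had 5, 13 and 6 against 9, 2 and 6. The repressor E2f7 had 7, 11 and 13 counts against 9, 5 and 8. E2f8, a repressor close to E2f7, was tested, with a log2 fold change of -0.026 (-0.85 to 0.80). The 4 E2F genes summed to 5.17, 5.50 and 4.54 CPM on the ground and 4.47, 3.25 and 3.00 CPM in lunar gravity, apart by a small margin.

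Clspn, claspin, which passes the replication stress signal to the kinase CHK1, was named after its values were seen. It had 12, 5 and 11 counts in GC1 to GC3 against 4, 1 and 0 in LG1 to LG3, at or below 1.88 CPM throughout, and it did not pass the filter on low counts. A count of 0 in LG3 allows up to 3 counts, or 0.363 CPM in that library on its total. Without a filter its log2 fold change was -2.60 (95% interval -3.91 to -1.30, edgeR adjusted p = 0.0046), and 3 members were then called lower, 6.52% of the 46, where 2.34% of all genes in that fit were. That call was lost without GC1 (adjusted p = 0.085) or LG3 (0.078), and the log2 fold change ranged from -4.08 without LG1 to -2.01 without LG3.

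The helicase genes had no member called among 9 tested, and their sums, at 54.8, 63.5 and 63.0 CPM on the ground and 60.2, 56.8 and 57.0 CPM in lunar gravity, overlapped. The 6 MCM genes encode subunits of 1 ring, and 5 of them had values below 0. Mcm5, Mcm7, Mcm2, Mcm3 and Mcm6 had log2 fold changes of -0.54, -0.38, -0.34, -0.33 and -0.11, while Mcm4 stood on the other side. Mcm4 had 47, 58 and 60 counts in GC1 to GC3 against 93, 71 and 92 in LG1 to LG3, or 7.36, 8.18 and 8.79 CPM against 11.5, 10.04 and 11.0 CPM. It was the 1 member higher in every lunar gravity library than in any ground control library, with a log2 fold change of 0.42 (SE 0.16, 95% interval 0.099 to 0.75), but it did not pass (edgeR adjusted p = 0.16). Cdc45, which joins the ring to form the active helicase, was at 0.044 (-0.57 to 0.66). Of the GINS subunits, Gins3 and Gins4 had log2 fold changes of 0.34 (-0.34 to 1.03) and 0.22 (-0.11 to 0.55), Gins1 had 4 to 12 counts per library, and Gins2 had 0 to 4. For Gins2 13.0% of the exon reads were unique, and with all exon reads its log2 fold change was -0.014.

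Of the genes that license and fire origins, 2 of 6 could be tested and none was called, with sums of 28.0, 27.9 and 29.3 CPM on the ground and 27.9, 24.9 and 31.7 CPM in lunar gravity that overlapped. Orc6, the smallest subunit of the origin recognition complex, had 30, 34 and 39 counts in GC1 to GC3 against 43, 31 and 61 in LG1 to LG3, with 4.70, 4.79 and 5.71 CPM against 5.33, 4.38 and 7.32 CPM. The groups overlapped, with a log2 fold change of 0.18 (-0.28 to 0.63; edgeR adjusted p = 0.78) that became -0.054 without LG3. Gmnn, geminin, which blocks CDT1 from loading helicase again, was among the most abundant members, at 21.2 ± 0.317 CPM on the ground and 21.4 ± 2.02 CPM in lunar gravity. Its log2 fold change was 0.016 (-0.21 to 0.25). The other 4 had few counts or none. Cdc6 had 3 to 6 counts per library, Cdt1 had 1 to 7 with 41.2% of its exon reads unique, and Orc1 was listed at 0 in all 6 libraries, with none of its exon reads unique. The counts leave out multi-mapped exon reads other than exon-exon reads, so the 0 of Orc1 need not mean that its RNA was absent. Mcm10, which activates the loaded helicase, had 4, 5 and 4 counts on the ground and 1, 1 and 2 in lunar gravity, apart but without a call in the unfiltered fit (log2 fold change -1.81, 95% interval -3.53 to -0.084, edgeR adjusted p = 0.35).

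The polymerase and primase genes summed to 40.1, 37.2 and 41.2 CPM on the ground and 32.4, 36.1 and 36.4 CPM in lunar gravity, which were apart at a ratio of 0.885, and none of 6 tested was called. Pole, the catalytic subunit of the leading strand polymerase, had 36, 34 and 52 counts in GC1 to GC3 against 37, 30 and 30 in LG1 to LG3. In CPM it was at 5.64, 4.79 and 7.62 against 4.59, 4.24 and 3.60, apart by a small margin, with a log2 fold change of -0.54 (SE 0.23, 95% interval -1.004 to -0.071; edgeR adjusted p = 0.24). Its accessory subunit Pole2 had 2 to 8 counts per library and was not tested. Pold1, the catalytic subunit of the lagging strand polymerase, was at 0.067 (-0.27 to 0.41), and the polymerase alpha subunits Pola1 and Pola2 were at -0.27 (-0.62 to 0.072) and -0.23 (-0.62 to 0.17). The primase genes Prim1 and Prim2 were at 0.030 (-0.80 to 0.86) and -0.15 (-0.74 to 0.44).

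The clamp, its loader and the enzymes that join Okazaki fragments formed the most abundant role group and overlapped between the groups, at 89.5, 96.5 and 101 CPM on the ground and 100, 96.6 and 94.0 CPM in lunar gravity. None of 7 tested was called. Pcna had a log2 fold change of -0.012 (-0.25 to 0.23), at 20.02 ± 2.19 and 19.8 ± 1.12 CPM, with 53.6% of its exon reads unique. The loader's large subunit Rfc1 was the most abundant member in CPM, at 45.4 ± 5.69 and 49.5 ± 1.96 CPM (0.12, -0.059 to 0.30). Per kilobase of exon, Gmnn had the highest level of the 47, at 14.6 CPM per kilobase over both groups, followed by Pcna at 8.30, Rfc1 at 7.89 and Gins4 at 7.84, which lie close together. The small loader subunits Rfc2, Rfc4 and Rfc5 had log2 fold changes of 0.038, -0.076 and -0.069, and Rfc3 had -0.53 (-1.15 to 0.090). Lig1, the ligase that seals the fragments, had 24, 35 and 29 counts in GC1 to GC3 against 21, 18 and 31 in LG1 to LG3, or 3.76, 4.94 and 4.25 CPM against 2.61, 2.54 and 3.72 CPM, with a log2 fold change of -0.54 (SE 0.25, 95% interval -1.06 to -0.012; edgeR adjusted p = 0.31). Fen1, the flap nuclease, had 2 to 7 counts per library, with 13.4% of its exon reads unique, and was at 0.093 with all exon reads (edgeR adjusted p = 0.91).

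**Figure D4:**
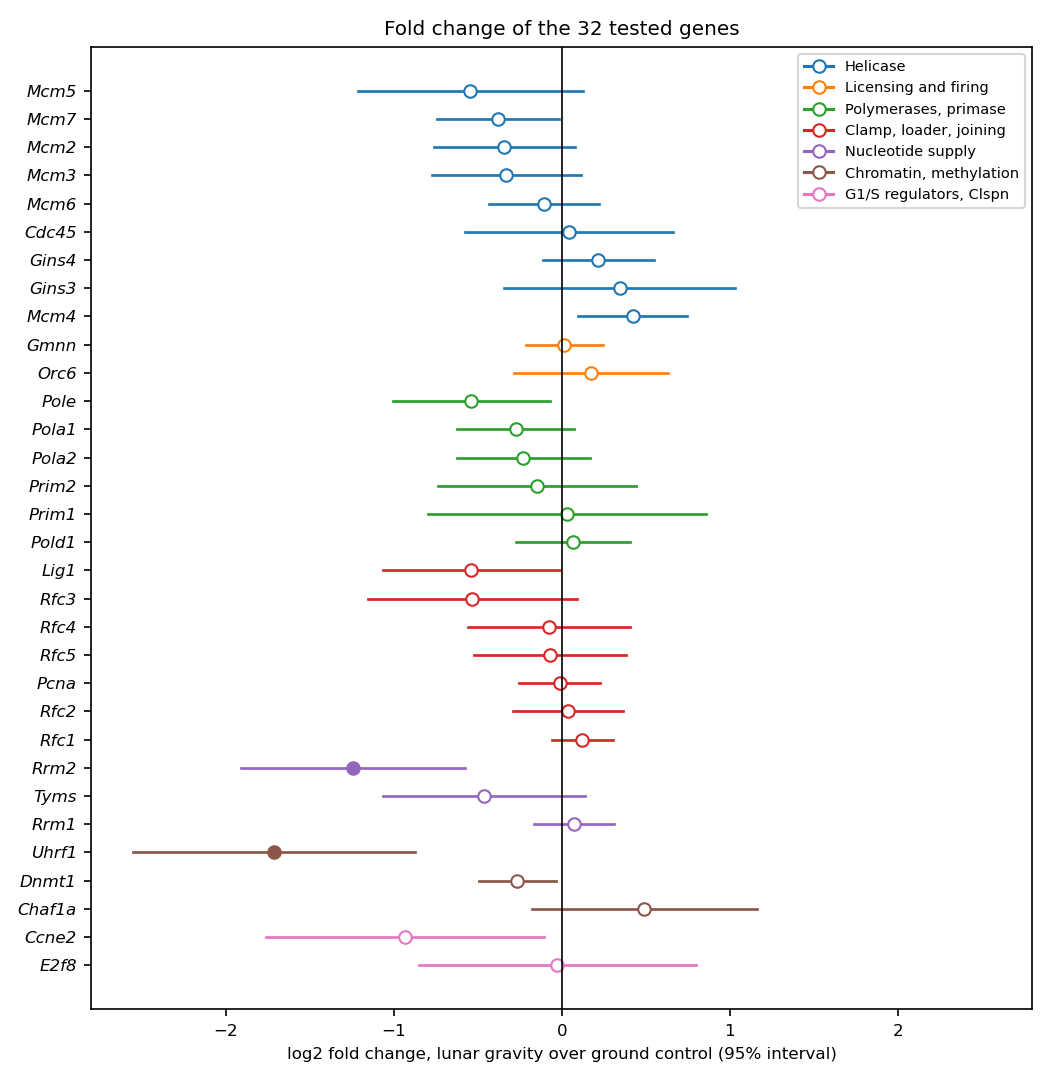
Log2 fold change (lunar gravity over ground control) with its 95% interval for the 32 tested genes, coloured by role group; filled points passed at an adjusted p under 0.05. Uhrf1 at -1.71 and Rrm2 at -1.24 are the 2 filled points, and the intervals of Gmnn, Pcna, Rfc1 and Rrm1 are the narrow ones around 0.

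For 22 of the 32 tested members the 95% interval lay within a 2-fold change in either direction, and for 11 within 1.5-fold. The interval of Uhrf1 reached below the -1.92 that bounds the interval of Mki67, and the lower bounds of the other 31 tested members lay at -1.91 (Rrm2) or above. In the fit without a filter, the intervals of the untested Clspn, Mcm10, Gins2, Tk1, Cdt1, Ccne1 and E2f1 also reached below -1.92. Those of the other untested members with counts did not. On simulated counts of the same depth, for genes averaging 10 to 200 counts per library, the test recovered 89.6% of 2-fold changes, 46% of 1.5-fold changes and 14% of 1.3-fold changes. Every simulated gene had the same dispersion between replicates. These rates therefore need not hold for genes that vary more, or for tested members at the low end of that range. Of the 15 members that were not tested, none had over 13 counts in a library, and their sum of 10.8, 11.7 and 12.3 CPM on the ground and 7.57, 6.79 and 5.88 CPM in lunar gravity was apart between the groups, at a ratio of 0.581. These counts leave out multi-mapped exon reads, and in Gins2, Tk1 and Fen1 13.0%, 3.95% and 13.4% of exon reads were unique. With all exon reads Gins2 was at -0.014 and Fen1 at 0.093, while Tk1, as given above, stayed below 0.

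Reads in introns gave a second view of the same 47 genes. On a CPM scale of intron reads alone they amounted to 240, 264 and 257 CPM in GC1 to GC3 against 251, 257 and 251 in LG1 to LG3, and on this scale the groups overlapped. Their log2 ratio was -0.0048 on this scale and -0.095 with TMM on intron reads, beside -0.091 for the summed counts with TMM. In GC1, Pola1, Prim2 and Rfc1 held 247, 230 and 181 of the 1327 intron reads. Intron reads did not follow the deposited counts in every gene. Tk1 had 66 to 111 intron reads per library beside at most 5 counts, and Orc1, listed at 0 counts, had 14 to 39. Of their exon reads 3.95% (Tk1) and 0% (Orc1) were unique. The deposited counts leave out multi-mapped exon reads other than exon-exon reads. The low counts of these genes therefore need not mean low exon coverage.

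Replication and G1/S genes outside the 47 were read in the same way. Of 42 further replication genes, 34 were tested and none was called by edgeR or limma voom. DESeq2 called none either when run without its independent filtering, a step that leaves low-count genes with no adjusted p. At an unadjusted p under 0.05 edgeR had 1, and the share of all tested genes at that threshold is not given here. The median log2 fold change of the 34 was -0.033, beside 0.00067 over all tested genes. The smallest p was that of the fork protection gene Timeless, at 9.83 ± 0.812 and 12.8 ± 2.18 CPM (0.38, edgeR adjusted p = 0.23). Of 20 further G1/S regulators, 18 were tested and 1 was called, Ccna2, the S and G2 phase cyclin. For both lists the background is 2.21% of all tested genes called lower and 1.56% called higher. Ccna2 had 13, 26 and 21 counts on the ground and 4, 4 and 5 in lunar gravity, apart in every library, and fell by 2.38 on the log2 scale (SE 0.41, edgeR adjusted p = 9.22e-04). Ccna2 passed the filter on low counts through its ground control libraries. With the filter blind to group its edgeR adjusted p was 0.0010.

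Markers of cells that could carry these transcripts were read in the same libraries. Endothelial cell markers (8 of 8 tested) and macrophage markers (8 of 8) had no member called, with summed levels of 1465 to 1541 and 1404 to 1611 CPM, and of 351 to 367 and 316 to 373 CPM, in ground control and lunar gravity. All 8 macrophage markers nevertheless had a log2 fold change below 0, with a median of -0.11. Cd68, a lysosomal protein of macrophages, was at 7.51, 5.78 and 5.86 CPM on the ground and 4.34, 3.39 and 4.56 CPM in lunar gravity, apart between the groups, with a log2 fold change of -0.62 (edgeR adjusted p = 0.12). The groups overlapped for the other macrophage markers. Of the endothelial markers, Kdr was apart and lower (-0.21, edgeR adjusted p = 0.091) and Tek apart and higher (0.16, edgeR adjusted p = 0.23), and the others overlapped. Among 8 fibroblast markers 3 were called lower, all collagens, while their sums overlapped (2668 to 2705 and 2534 to 2729 CPM). Of 8 smooth muscle and pericyte markers 2 were called higher and 1 lower (sums of 1221 to 1245 and 1321 to 1458 CPM), and of 8 cardiomyocyte markers 3 lower and 1 higher (90249 to 92390 and 66642 to 74567 CPM). B cell markers summed to 14.7 to 19.9 CPM on the ground and 12.9 to 13.4 CPM in lunar gravity, apart between the groups, with 2 tested and none called, and erythroid markers to 604 to 879 and 589 to 993 CPM, with 7 tested and none called. T cell markers (1.76 to 4.65 and 1.36 to 4.44 CPM) had no tested member, and of the neutrophil markers (1.25 to 3.24 and 3.11 to 6.00 CPM) 1 was tested and not called, with Ly6g, Camp and Mpo at 0. The part of cell makeup in the falls of Uhrf1 and Rrm2 was not tested.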

How the data were processed

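RNA depleted of ribosomal RNA was sequenced on an Illumina NextSeq 500 from 3 ground control and 3 lunar gravity heart libraries, per the labels' protocols. The authors deposited 1 table of 49585 genes. The build, per the submitters' processing notes, was GRCm38 (mm10). No aligner, counter, annotation release or strand setting was given in the sources used here, so overlapping and antisense genes are uncertain. The deposited expression values were whole-number counts of reads per gene, equal in all 49585 genes to unique exon reads plus multi-mapped exon-exon reads. Exon lengths and coordinates, counted from 1, are the table's own.

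In R 4.3.3, edgeR 4.0.16 filtered the counts (filterByExpr, minimum count 10), scaled them by TMM and ran its robust quasi-likelihood test, with Benjamini-Hochberg adjustment over 12258 genes; 462 were called at an adjusted p under 0.05. CPM uses TMM-scaled library sizes. The members and lists were chosen with earlier results of these data known. Values in every library are given for called members and, in role groups without one, for the tested member with the smallest p; from each further list, up to 3 called genes or the smallest p. Simulated data gave 5.43% false calls. Replicates differed by more than counting noise (mean chi-square per gene of 2.14 to 5.73). Alternatives were other scalings and filters, DESeq2 1.42.0, limma 3.58.1 voom, a non-robust fit, a replicate block, other read columns, the header's grouping of GC3 and leaving out each library. Floors for counts of 0 cover counting error only.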

Additional observations from a re-analysis of the deposited data

How the results depend on the processing

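The count of all called genes was 765 without a filter, 307 with DESeq2, 286 with DESeq2 without independent filtering, 32 with GC3 grouped with lunar gravity as the table's header has it, and 219 to 463 with 1 library left out; 41.3% of the calls were higher, against 59.9% with library totals. Of the members, 0 were lower with DESeq2, which gave an adjusted p to 2 of the 32, 0 without its independent filtering (Uhrf1 0.083, Rrm2 0.14), 0 under the header's grouping (0.40 and 0.75), and 0 to 2 with 1 library left out, with 0 without LG2. No fit with 1 library left out called both Uhrf1 and Rrm2. The 2 called without GC2 or without LG1 were Rrm2 and Clspn, which passed the filter there (Clspn edgeR adjusted p = 0.037 and 0.013). The member called beside Uhrf1 and Rrm2 without a filter was Clspn, whose log2 fold change was -1.22 (adjusted p = 0.51) under the header's grouping. No alternative called a member higher. The count of further pathway genes called was 0 with DESeq2, which gave Ccna2 no adjusted p. It was 1 with DESeq2 without independent filtering, with Ccna2 at an adjusted p of 0.0034. Under the header's grouping it was 0, and Ccna2 had an edgeR adjusted p of 0.55. With 1 library left out, Orc6 ranged from -0.054 (without LG3) to 0.32. The log2 ratio of the members' summed CPM was -0.091 and moved to -0.011 under the header's grouping, to -0.047 with library totals and to between -0.12 (without GC1) and -0.053 (without GC3) with 1 library left out. The unfiltered median of -0.27 moved to -0.11 under it and to between -0.33 and -0.19 with 1 library left out. The ratio of intron reads, -0.0048 on intron totals, was -0.096 with RLE size factors, -0.091 with upper quartile and -0.095 with TMM. For the G1/S regulators and Clspn the log2 ratio of -0.83 was -0.55 under the header's grouping, -0.65 without the gene Clspn, and between -1.06 and -0.67 with 1 library left out (these were added after seeing the data). The causes were not tested. Same-numbered libraries showed no shared deviation (correlations of 0.0076, -0.054 and 0.045 over genes), and the numbers were not treated as pairs. These correlations cannot show that libraries are unpaired, for example by mission. With a replicate block 2 members were again lower. Of the 15 untested members, 14 had counts, at most 13 in a library, and with total exon reads 36 members could be tested.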
